A study of Mus musculus with 4 samples.

Results

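The 10 genes described here encode the chaperones and disulfide isomerases that fold proteins in the mouse endoplasmic reticulum (ER): *Calr*, *Canx*, *Hsp90b1*, *Hspa5*, *Pdia3*, *Pdia4*, *Pdia6*, *P4hb*, *Hyou1* and *Dnajb11*. They were chosen by name, with earlier results of these data known. A peak belonged to a gene when its summit, the base of highest coverage, lay inside the GENCODE M21 gene (build GRCm38). By that rule 70 of 19866 deposited peaks were theirs: 29 of 7069 for IGF2BP2, 16 of 2834 for YTHDF2 and 25 of 9963 for YTHDC1.

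The study asked which RNAs are held by 3 proteins that read N6-methyladenosine (m6A), a methyl mark on adenosines of mRNA. For each of IGF2BP2, YTHDF2 and YTHDC1 there was 1 library of RNA pulled down with an antibody to that protein, and 1 further library was the input, taken without antibody. All 4 came from the lineage-negative, c-Kit-positive fraction of mouse bone marrow, which the labels call LIC. The series title places the work in acute myeloid leukaemia, but no label names an oncogene, a strain, an age or a number of animals. The medium contained IL3, IL6 and SCF. Every library shared the same ultraviolet crosslinking at 254 nm and the same sonication. With 1 library per protein, differences between readers could not be set against a replicate spread and none was tested, and the 95% intervals given cover counting error only. The 3 lists also share 1 control, so their overlaps are given as descriptions.

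Newly made secretory and membrane proteins enter the ER unfolded. BiP (*Hspa5*) and GRP94 (*Hsp90b1*) hold exposed stretches of chain, calreticulin (*Calr*) and calnexin (*Canx*) hold proteins by their sugars, and disulfide isomerases join and shuffle cysteine bonds. Many of these proteins begin with a signal peptide that is cut off on entry, and several end in an acidic tail followed by the KDEL-type signal that keeps them in the ER. In human myeloproliferative neoplasms, frameshifts in exon 9 of *CALR* replace that tail. Of the readers, YTHDF2 is known for promoting the decay of cytoplasmic mRNA, IGF2BP2 for stabilising mRNA and YTHDC1 for nuclear roles in splicing and export.

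Sequences of 2 kinds of stretch under member peaks are printed here, picked by purine content and by position at the CDS start. Many of the 30 places with a CDS summit fit neither kind. Each sequence below is the spliced coding sequence (CDS) from 50 nt before a summit to 50 nt after it, or what of that lies inside the CDS, on the gene's strand and read from the GENCODE M21 transcript. Capitals mark GGAC, the core of the m6A consensus. The first set holds 6 of the 8 windows at or above the 90th percentile of purine content among the windows of their own CDS. The other two, in *P4hb* exon 10, which overlaps the one printed, and *Hyou1* exon 16, are not shown. The *Calr* window lies in exon 9 at chr8:84842703-84842803 (minus strand). The *Canx* window joins exons 13 and 14 across chr11:50297096-50297332 (minus). The first *Hsp90b1* window lies in exon 7 at chr10:86698321-86698421 and the second joins exons 17 and 18 across chr10:86691112-86691712 (both minus). The *Pdia4* window lies in exon 2 at chr6:47808222-47808322 (minus), and the *P4hb* window joins exons 10 and 11 across chr11:120561190-120562190 (minus).
Calr exon 9: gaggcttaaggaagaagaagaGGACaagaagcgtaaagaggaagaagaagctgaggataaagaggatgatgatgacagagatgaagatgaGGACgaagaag
Canx exons 13 and 14: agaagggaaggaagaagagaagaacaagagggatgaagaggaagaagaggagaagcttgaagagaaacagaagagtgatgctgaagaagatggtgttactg
Hsp90b1 exon 7: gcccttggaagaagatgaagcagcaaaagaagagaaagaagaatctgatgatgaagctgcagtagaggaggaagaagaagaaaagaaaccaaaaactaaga
Hsp90b1 exons 17 and 18: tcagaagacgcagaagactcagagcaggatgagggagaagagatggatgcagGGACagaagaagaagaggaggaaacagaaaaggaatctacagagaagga
Pdia4 exon 2: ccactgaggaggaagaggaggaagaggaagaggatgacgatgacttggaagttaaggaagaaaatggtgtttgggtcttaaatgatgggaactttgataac
P4hb exons 10 and 11: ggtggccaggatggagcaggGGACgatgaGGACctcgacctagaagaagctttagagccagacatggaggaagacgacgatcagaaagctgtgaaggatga

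The second set holds windows at the start of the CDS, shown because summits gathered there too and because they read differently: each holds codons of the signal peptide, and those of *Calr* and *Pdia3* are poor in purines. The *Hspa5* window lies in exon 2 at chr2:34772322-34772393 (plus strand), and its last bases are again a purine run with GGAC. The *P4hb* window lies in exon 1 at chr11:120572699-120572799 (minus), the *Pdia3* window in exon 1 at chr2:121414039-121414124 (plus) and the *Calr* window in exon 1 at chr8:84846745-84846798 (minus).
Hspa5 start: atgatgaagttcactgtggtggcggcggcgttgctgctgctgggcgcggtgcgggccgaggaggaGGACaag
P4hb start: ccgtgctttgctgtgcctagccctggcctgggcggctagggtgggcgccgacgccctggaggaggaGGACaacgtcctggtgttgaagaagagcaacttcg
Pdia3 start: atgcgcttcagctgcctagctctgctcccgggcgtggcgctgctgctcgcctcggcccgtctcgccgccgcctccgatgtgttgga
Calr start: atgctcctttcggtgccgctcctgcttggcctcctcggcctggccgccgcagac

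Most of the 10 genes were bound, and most by every reader. IGF2BP2 had a peak in 8 of the 10 genes, where 12.8% of 21951 protein-coding genes had one. YTHDF2 had a peak in 7 of 10, against 7.28% of all protein-coding genes. YTHDC1 had a peak in 8 of 10, against 20.0% of all. *Calr*, *Canx*, *Hsp90b1*, *Hspa5*, *Pdia3*, *P4hb* and *Hyou1* had peaks of all 3 readers, which 5.12% of protein-coding genes had. A peak of any reader was found in 8 of 10 members and in 23.9% of protein-coding genes. Since the members were chosen with earlier results known, these contrasts are descriptions and no test. *Pdia4* had none of YTHDF2. *Pdia6*, the isomerase also called P5, and *Dnajb11*, a co-chaperone that brings unfolded chains to BiP, had no peak in any list. The nearest peak to *Pdia6* was 77836 bp away and the nearest to *Dnajb11* 231665 bp away.

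Members also carried more peaks each. The median bound member had 3.5 IGF2BP2 peaks, 2 YTHDF2 peaks and 3.5 YTHDC1 peaks, and the median bound protein-coding gene had 1 in each list. Their peaks made up 0.410% of the IGF2BP2 list (exact binomial 95% interval 0.275 to 0.589), 0.565% of the YTHDF2 list (0.323 to 0.915) and 0.251% of the YTHDC1 list (0.162 to 0.370). *Hyou1* and *Hsp90b1* had the most IGF2BP2 peaks, 6 each. The median pileup, the number of fragments stacked at the summit, was 7, 8.5 and 15 at member peaks for IGF2BP2, YTHDF2 and YTHDC1, and 5, 5 and 6 over the lists. The median fold over the local background, a value of the authors' own, was 6.43, 8.66 and 11.98 at member peaks and 5.92, 5.63 and 6.01 over the lists.

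RNA abundance was not measured here, and the local background behind each fold is the nearest value the lists hold. Backgrounds worked back from pileup and fold were whole multiples of a fixed step, within 0.02 steps, at 93.4% to 95.7% of the higher values in each list. The background reached at least 1 step at 68.0% of IGF2BP2, 68.8% of YTHDF2 and 76.0% of YTHDC1 exonic summits in members. Over all exonic summits of protein-coding genes it did so at 29.1%, 38.4% and 47.5%. Member summits thus stood on a higher background more often than those of the lists, and the part of this in their peak counts was not tested. More RNA per cell and more cells with the RNA cannot be told apart in such bulk libraries.

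The identity of the fraction could be checked only through which marker genes had peaks. Of 12 myeloid progenitor genes, 1, 3 and 6 had a peak of IGF2BP2, YTHDF2 and YTHDC1. Of all protein-coding genes 12.8%, 7.28% and 20.0% had one, and 23.9% had a peak of any reader. None of 8 lymphoid and 7 erythroid genes had a peak in any list. Mature myeloid genes had peaks in 3, 1 and 3 of 8, and stromal and endothelial genes in 0, 0 and 2 of 6. An absent peak does not show an absent RNA, and the lists are short beside the share of all genes with a peak, so this says little about purity.

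*Calr* held the strongest member peak in every list. Calreticulin is a soluble lectin chaperone that also buffers calcium through its acidic tail. Its peaks in the last exon, exon 9 (chr8:84842617-84842958 over the 3 readers), overlapped one another. IGF2BP2 had a pileup of 150 there (exact Poisson 95% interval 127 to 176), YTHDF2 of 64 (49.3 to 81.7) and YTHDC1 of 121 (100.4 to 144.6). The authors' fold was 68.1, 34.7 and 46.1, which ranked 4 of 7069, 7 of 2834 and 42 of 9963 within the lists. The 3 summits lay 104, 110 and 91 nt before the stop codon, in the stretch that encodes the acidic tail.

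The second *Calr* place was in exon 5, in the middle of the CDS. All readers had a peak there, with pileups of 41, 25 and 33 and folds of 13.2, 9.48 and 8.58 for IGF2BP2, YTHDF2 and YTHDC1. The coding place in exon 9 took 75.8%, 71.9% and 72.9% of the pileup summed over the *Calr* places of the 3 readers. The intervals of these shares overlapped (69.2 to 81.6, 61.4 to 80.9 and 65.5 to 79.5), which does not show that the shares are alike. Beyond these, IGF2BP2 had a weak peak in the 3′ UTR, also in exon 9, with a pileup of 7, and YTHDC1 had one at the start codon with a pileup of 12.

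**Figure D1:**
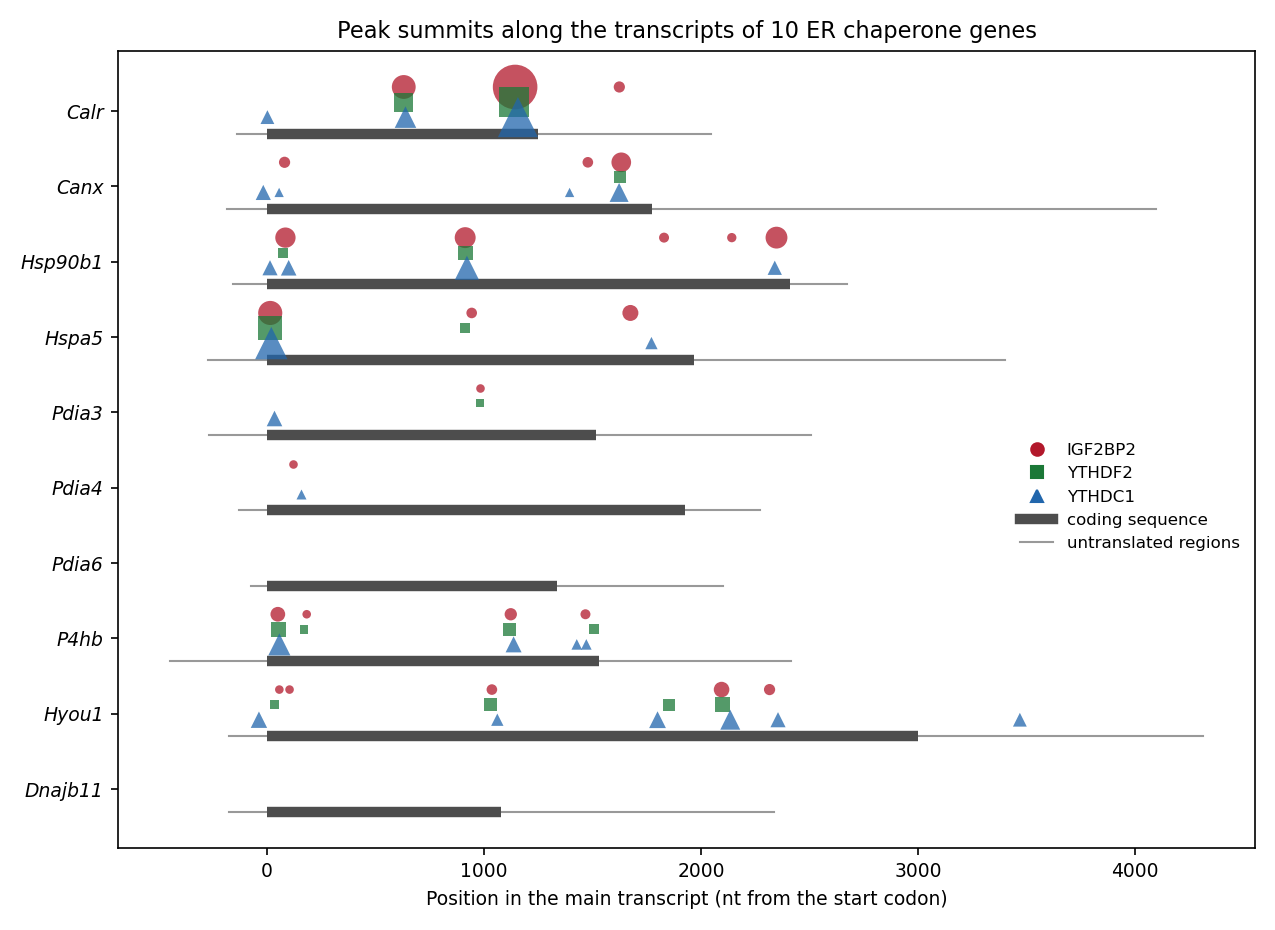
Peak summits along the main transcript of each gene, in nt from the start codon (horizontal axis), with the CDS as a thick bar and the untranslated regions as a thin line. Circles are IGF2BP2, squares YTHDF2 and triangles YTHDC1, larger with higher pileup. The largest marks stand over the end of the *Calr* CDS (pileups 150, 64 and 121) and the start of *Hspa5* (42, 43 and 78). *Pdia6* and *Dnajb11* are empty, and 4 intronic IGF2BP2 summits are not drawn.

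*Canx*, the membrane-bound relative of calreticulin, repeated the pattern of a leading peak near the end of the CDS. At exon 13 (chr11:50297019-50297453), which encodes part of the acidic cytosolic tail, IGF2BP2 had a pileup of 27, YTHDF2 of 8 and YTHDC1 of 25. The folds were 20.5, 6.97 and 17.4. It was the only *Canx* peak of YTHDF2. The other *Canx* places had pileups of 4 to 15, and the highest of them was a YTHDC1 peak whose summit lay in the 5′ UTR, 16 nt before the start codon.

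*Hsp90b1* encodes GRP94, the ER member of the Hsp90 family, which folds Toll-like receptors and integrins. It had 3 places of similar height for IGF2BP2 and a different order for the others. In exon 7 the pileup was 31, 13 and 42 for IGF2BP2, YTHDF2 and YTHDC1. In exon 2 it was 29, 5 and 16. Exon 7 encodes a charged linker that joins the ATP-binding and middle domains, and exon 2 the first residues after the signal peptide. In exon 17, the acidic end of the protein, IGF2BP2 had a pileup of 34 and YTHDC1 of 13, and YTHDF2 had no peak. The exon 17 summits also lie within *1810014B01Rik*, a pseudogene on the opposite strand. The lists carry no strand, so the 2 sources cannot be told apart there.

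*Hspa5* encodes BiP, the Hsp70 of the ER, which also holds the sensors of the unfolded protein response inactive. Its highest pileup was at the start codon, in exon 2 (chr2:34772152-34772559), where IGF2BP2 had a pileup of 42 (30.3 to 56.8), YTHDF2 of 43 (31.1 to 57.9) and YTHDC1 of 78 (61.7 to 97.3). Summits lay 16, 16 and 21 nt into the CDS. The folds there were 8.77, 10.7 and 11.98, over a background of 32.0, 32.0 and 34.0 steps. At *Calr* exon 9 the background stood at 10.0, 9 and 10.0 steps. Pileup and fold ordered the places differently: the *Hspa5* start had a higher pileup than *Canx* exon 13 in every list and a lower fold for IGF2BP2 and YTHDC1. In exon 9 of *Hspa5*, IGF2BP2 had a pileup of 17 and YTHDC1 of 9. For IGF2BP2 that peak led the gene by fold (16.0) and by −log10 q (27.8, against 24.6 at the start). A weak place in exon 6 had pileups of 6 and 5 for IGF2BP2 and YTHDF2.

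*Hyou1* encodes GRP170, which exchanges the nucleotide of BiP, and had 8 places spread over the transcript. The highest was in exon 18 (chr9:44387631-44388287), with pileups of 16, 14 and 28 and folds of 15.2, 13.7 and 24.9 for IGF2BP2, YTHDF2 and YTHDC1. The other place of all readers, exon 10, had pileups of 6, 9 and 9. Exon 20 had 7 for IGF2BP2 and 15 for YTHDC1. Exon 16 had a pileup of 19 for YTHDC1 and, with its summit 18 nt inside the adjoining intron, 10 for IGF2BP2. YTHDC1 alone had peaks in the 5′ UTR (pileup 18) and the 3′ UTR (pileup 12). The 3′ UTR peaks of *Hyou1* and *Calr* were the only member summits in a 3′ UTR of the main transcript.

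Among the disulfide isomerases the coverage was uneven. *P4hb*, the classical protein disulfide isomerase and also a subunit of collagen prolyl hydroxylase, had 3 places with all readers. In exon 1, beside the start codon, the pileup was 14, 15 and 35 for IGF2BP2, YTHDF2 and YTHDC1. In exon 8 it was 9, 11 and 17, and in exon 11, the acidic end, 5, 5 and 6. *Pdia3*, or ERp57, works with calreticulin and calnexin on glycoproteins. It had a YTHDC1 peak in exon 1 with a pileup of 16 and a weak place in exon 8 with pileups of 3 for IGF2BP2 and 2 for YTHDF2. *Pdia4*, or ERp72, had 1 place in exon 2, with pileups of 3 for IGF2BP2 and 5 for YTHDC1. Their IGF2BP2 folds, 3.88 and 3.90, lay below the list median of 5.92. Partners in one pathway stood at different ranks by fold: the strongest IGF2BP2 peaks of *Calr* and *Canx* stood at percentiles 99.96 and 95.1 of that list by fold, and that of *Pdia3* at 5.46. In the YTHDF2 list they stood at 99.79, 69.7 and 0.141. In the YTHDC1 list the percentiles were 99.59, 93.6 and 68.2.

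**Figure D2:**
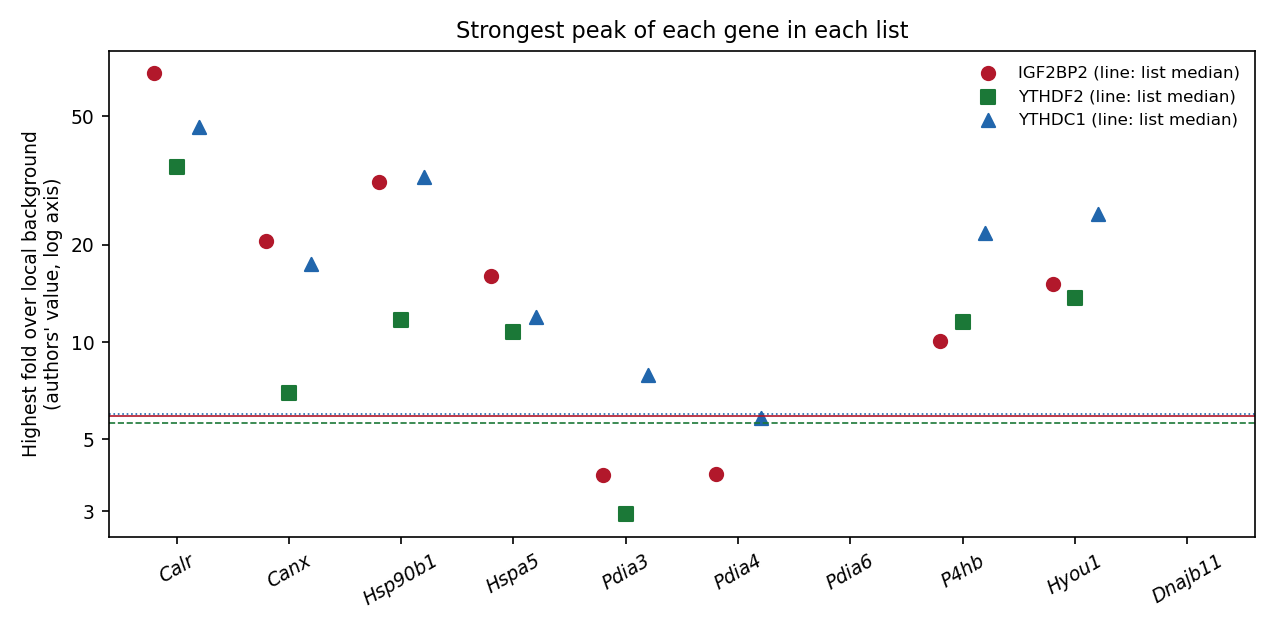
Highest fold over the local background (log axis, the authors' value) among the peaks of each gene (horizontal axis) in the IGF2BP2 (circles), YTHDF2 (squares) and YTHDC1 (triangles) lists, with the median of each list as a line. *Calr* is highest for every reader (68.1, 34.7 and 46.1), *Pdia3* and *Pdia4* lie near or below the medians except *Pdia3* for YTHDC1 (7.90), and *Pdia6* and *Dnajb11* have no peak.

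Member peaks of different readers often overlapped. Merging overlapping member peaks gave 36 places: 11 with all 3 readers, 11 with 2 and 14 with 1. At the 11 places of all readers, the summits of the different readers lay within 5 to 40 nt of each other, with a median of 19 nt, taking the highest peak of each reader. The *Hyou1* exon 18 place holds a further YTHDF2 peak, whose summit in exon 17 lies 375 nt from the nearest summit of another reader. At the 11 places of 2 readers the summits lay 0 to 97 nt apart, with a median of 25 nt, and the widest gap was at *Hspa5* exon 9. Among member peaks, 37.9% of IGF2BP2, 75% of YTHDF2 and 44.0% of YTHDC1 peaks overlapped peaks of both other readers. Over the whole lists these shares were 17.7%, 44.4% and 12.5%. The lists share their control, and members carried higher pileups, so these shares say nothing of joint binding on the same molecule. YTHDF2, the shortest list, had no member peak of its own alone, where 21.4% of its whole list had no partner. IGF2BP2 had 7 such places, with pileups of 3 to 7, and YTHDC1 had 7, with pileups of 4 to 18. These were 24.1% of the IGF2BP2 and 28.0% of the YTHDC1 member peaks, against 53.4% and 68.9% of the whole lists.

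The ratio of pileups between readers varied, but at most shared places the readers' intervals overlapped once scaled. If a background step is 1 fragment of the shared control, the size of a step gives the scale of each list. Relative to the YTHDF2 list, set to 1, that scale was 1.26 for IGF2BP2 and 1.70 for YTHDC1. Divided by these scales, *Calr* exon 9 had an IGF2BP2 value of 119 (100.8 to 139.8), a YTHDF2 value of 64 (49.3 to 81.7) and a YTHDC1 value of 71.2 (59.1 to 85.1). *Hsp90b1* exon 2 likewise had an IGF2BP2 value of 23.0 (15.4 to 33.1), with YTHDF2 at 5 (1.62 to 11.7) and YTHDC1 at 9.41 (5.38 to 15.3). At the *Hspa5* start the scaled values were 33.4, 43 and 45.9, with overlapping intervals. The scaled intervals also overlapped at the remaining shared places, such as *Calr* exon 5 (32.6, 25 and 19.4) and *Hsp90b1* exon 7 (24.6, 13 and 24.7). The scales rest on that assumption about the caller and do not account for how well each antibody pulled down its protein.

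**Figure D3:**
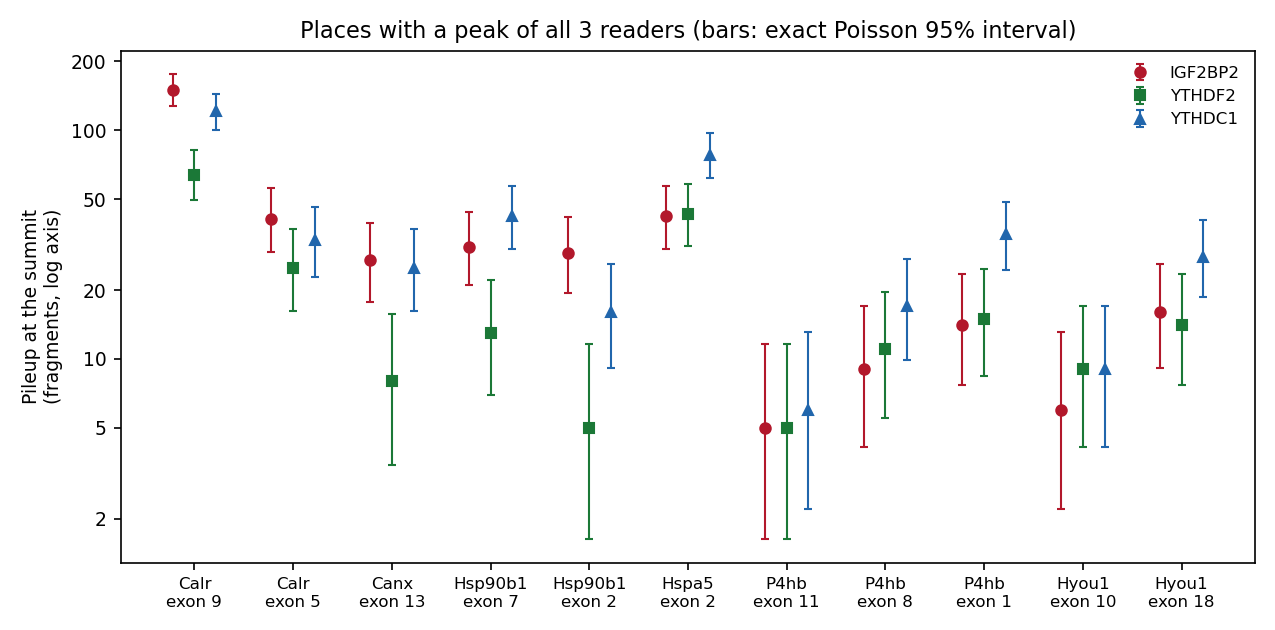
Pileup at the summit, in fragments on a log axis, at the 11 places with a peak of all 3 readers (horizontal axis, gene and exon). Circles are IGF2BP2, squares YTHDF2 and triangles YTHDC1, unscaled, with exact Poisson 95% intervals that cover counting error only. YTHDF2 is lowest at *Canx* exon 13 (8, against 27 and 25) and *Hsp90b1* exon 2 (5, against 29 and 16). It is also lowest at both *Calr* places, *Hsp90b1* exon 7 and *Hyou1* exon 18. At *Hspa5* it stands level with IGF2BP2 (43 and 42).

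Nearly all member peaks lay in coding sequence. The summit was in the CDS for 24 of 29 peaks for IGF2BP2 (82.8%, 64.2 to 94.2), for all 16 of YTHDF2 (lower bound 79.4%) and for 22 of 25 of YTHDC1 (88.0%, 68.8 to 97.5). Over peaks in all protein-coding genes the CDS shares were 61.1%, 60.7% and 35.1%, each below the member interval. These intervals treat peaks as independent, though several come from the same gene. Where a list value falls is thus a description and no test. The call depended on how the region was set. Where a summit counted as untranslated if any annotated transcript had it so, the member shares were 72.4% (52.8 to 87.3), 81.3% (54.4 to 96.0) and 76.0% (54.9 to 90.6), and the list shares 53.5%, 53.8% and 31.4%, of which the IGF2BP2 value lies inside the member interval. With the middle of the peak in place of the summit the member shares were 72.4%, 81.3% and 64.0% (42.5 to 82.0) and those of the lists 59.8%, 58.1% and 33.6%, and the values of IGF2BP2 and YTHDF2 lie inside. For YTHDC1 the list lay below the members in each case. The difference was widest for YTHDC1, whose list had 44.4% of such peaks in introns, while members had 0 of 25 there (exact upper bound 13.7%). The 4 intronic IGF2BP2 summits of members lay 10 to 62 nt from an exon, in *P4hb*, *Hyou1*, *Hsp90b1* and *Canx*, and each of those peaks overlapped the exon. The member genes therefore showed no peak deep in an intron. They span 5085 to 31713 bp, and their intron length was not set against that of other genes.

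Within the CDS, summits gathered at both ends. The first 10% of the CDS held 29.2%, 25% and 36.4% of member CDS summits of IGF2BP2, YTHDF2 and YTHDC1, against 13.1%, 12.2% and 14.0% over the lists. The last 10% held 16.7%, 18.8% and 27.3%, against 5.71%, 7.26% and 8.44%. With 24, 16 and 22 summits, several from the same gene, the member intervals are wide and serve as description only. At both ends the list value lay inside the member interval for IGF2BP2 and YTHDF2, and below it for YTHDC1 (17.2 to 59.3 at the start, 10.7 to 50.2 at the end). The last part includes *Calr* exon 9, *Canx* exon 13, *Hsp90b1* exon 17 and *P4hb* exon 11, all of which encode acidic ends. For YTHDC1 it also holds the summits in *P4hb* exon 10 and *Hspa5* exon 9, at 93.3% and 90.04% of their CDS.

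Summits close to the start codon were counted by gene. Within 100 nt of the start codon, a distance chosen after the positions had been seen, YTHDC1 had a summit in 7 of the 8 members with exonic summits, every one but *Pdia4*. IGF2BP2 had one in 5 of 8 and YTHDF2 in 4 of 7. Among all protein-coding genes with exonic summits, 18.2%, 14.2% and 11.8% had one for YTHDC1, IGF2BP2 and YTHDF2. Members also carried more peaks per gene, and the part of that in this count was not tested. The count also moved with list length: when every list was limited to its 2834 peaks of highest −log10 q, 4 members had such a summit for each reader. Of the 7 places with YTHDC1 alone, 5 were in exon 1, in *Calr*, *Canx*, *Hsp90b1*, *Pdia3* and *Hyou1* (71.4%, 29.0 to 96.3), and of all exonic YTHDC1 summits without a partner 32.8% were in exon 1. Counting every exonic YTHDC1 summit, exon 1 held 24.0% in members and 24.7% over the list, so the members did not differ from the list in that measure. The exon 1 summit of *Hsp90b1* also overlaps the annotated miRNA gene *Gm25745*.

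Codons for aspartate and glutamate, which all begin with GA, were more frequent at the pooled member summits than at those of the lists. In windows of 33 codons at member CDS summits they made up 31.6%, 31.4% and 33.4% for IGF2BP2, YTHDF2 and YTHDC1, against 22.5%, 22.7% and 22.4% at all CDS summits of the lists. The whole CDS also differed: counted once per summit, its median content was 19.1% for members in each list, against 14.8%, 14.4% and 13.6%. Among the members with CDS summits the content of the whole CDS reached from 15.4% in *Pdia3* to 25.7% in *Calr*. The window exceeded its own CDS at 75%, 75% and 72.7% of member summits, close to the 74.9%, 73.1% and 71.6% of the lists. The median difference between window and CDS was 9.59, 8.88 and 12 percentage points at member summits, and 5.26, 5.40 and 5.40 points over the lists. Summits of a gene share its sequence, so these medians rest on few genes.

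The richest windows were those printed first. *Calr* exon 9 had 69.7% such codons, where its whole CDS had 25.7%, and 84.2% purines, where its CDS had 58.4%. *Hsp90b1* exon 17 had 57.6% and exon 7 had 51.5%, over a CDS of 21.4%. *Pdia4* exon 2 had 54.5% (CDS 17.5%), *Canx* exon 13 51.5% (CDS 22.7%) and *P4hb* exon 11 48.5% (CDS 19.1%). Their highest pileups in any list were 150 at *Calr* exon 9, 34 and 42 at *Hsp90b1* exons 17 and 7, 27 at *Canx* exon 13, 5 at *Pdia4* exon 2 and 6 at *P4hb* exon 11.

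Other places broke the pattern. Each of 30 places with a CDS summit was taken at its summit of highest pileup. Of these, 8 reached the 90th percentile of purine content among the windows of their own CDS, and 12 of 30 were at or below the purine content of the whole CDS. The *Hspa5* start, second in pileup, had 16.7% codons for aspartate and glutamate, level with 16.9% of its CDS. *P4hb* exon 1 had 15.2% and 54.5% purines, below the 56.0% of its CDS. At their highest summits *Hyou1* exon 18 and *Calr* exon 5 were near or below their CDS in purines (55.4% and 57.4%). They were above it in codons for aspartate and glutamate (30.3% and 36.4%). The choice of summit mattered: in *Hyou1* exon 18 the IGF2BP2 and YTHDF2 windows had 64.4% and 63.4% purines, above the 55.9% of the CDS. In *Calr* exon 5 YTHDF2 had 58.4%, level with its CDS, and YTHDC1 59.4%. The *Calr* and *Pdia3* start windows had a lower purine content than any full window of their CDS, 33.3% and 37.2%. Pooled over member summits the purine share was 62.8%, 64.1% and 63.8%, and over the lists 61.9%, 61.3% and 61.2%, so the members as a set hardly stood above the lists in purines.

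**Figure D4:**
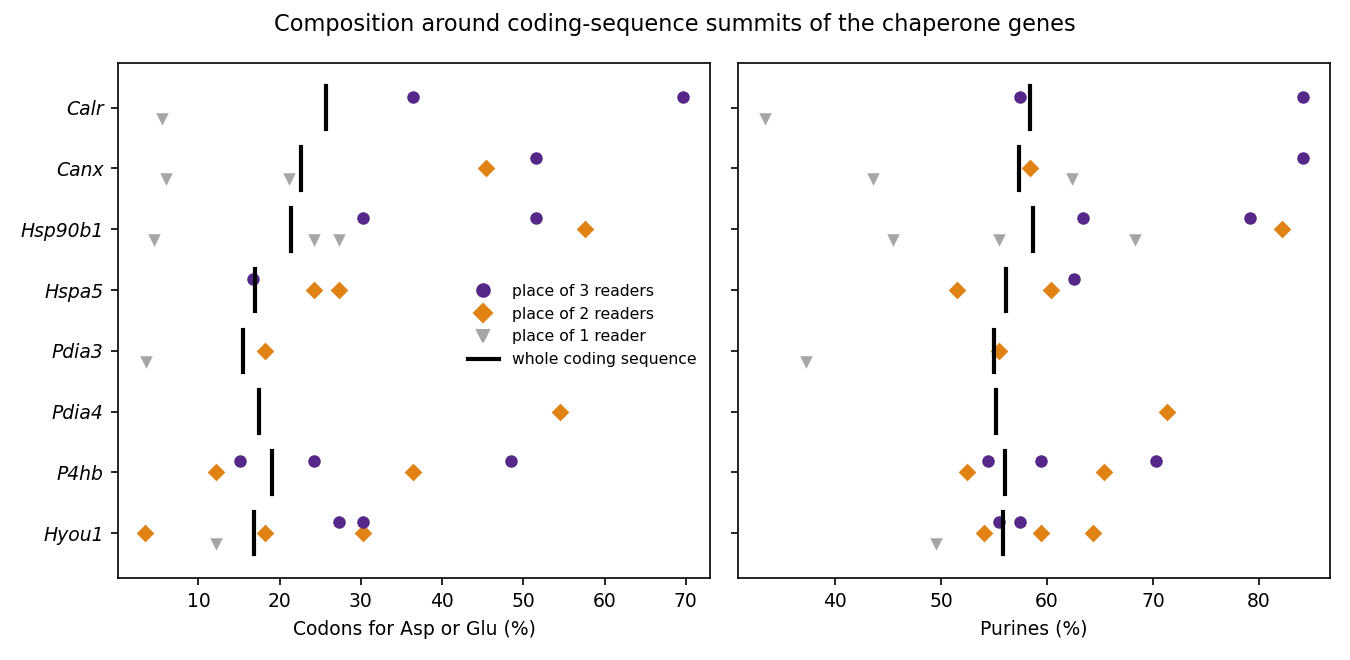
Codons for aspartate or glutamate (left, % of the window) and purines (right, % of the window) at 30 CDS places of the member genes. Each mark is a place, at the summit of highest pileup, and black bars show the whole CDS. Places of all 3 readers (circles) reach 69.7% and 84.2% at *Calr* exon 9, while places of 1 reader (triangles) lie mostly near or left of the bar.

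GGAC, the core of the m6A consensus, was counted in the same windows. On the gene's strand it was in 41.7%, 43.8% and 59.1% of member windows for IGF2BP2, YTHDF2 and YTHDC1, and in 43.3%, 42.2% and 42.6% of all CDS windows of the lists. The list value lies inside the member interval for each reader (22.1 to 63.4, 19.8 to 70.1 and 36.4 to 79.3), which at this number of windows does not show that the shares are alike. Taking each place once, 13 of 30 windows (43.3%) held GGAC. Across all windows of the same coding sequences, weighted by places, 38.1% held it. The printed *Calr* exon 9 window has 2 copies, but 73.6% of all windows of the *Calr* CDS hold at least 1. The printed windows of *Canx* exon 13, *Hsp90b1* exon 7 and *Pdia4* exon 2 hold none. The longer form GGACT was in 8.33%, 12.5% and 4.55% of member windows and in 10.8%, 11.6% and 11.3% of the lists. GTCC, the reverse complement of GGAC, was in 29.2%, 25% and 18.2% of member windows and 22.1%, 22.7% and 24.4% of the lists.

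The purine words GAAGA and GAGGA, which may overlap each other, were common everywhere. GAAGA was in 62.5%, 62.5% and 72.7% of member windows, against 57.6%, 53.9% and 48.0% of the lists. GAGGA was in 62.5%, 75% and 68.2%, against 52.3%, 52.1% and 54.7%. The intervals of the member shares are wide and treat windows of the same gene as independent, so they are no test. Only the interval of GAAGA for YTHDC1 (49.8 to 89.3) lay above the list value. A match in a window is a description of its letters and not a site of methylation or binding.

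The wider pathway was bound less often than the members and more often than protein-coding genes at large. Of 94 genes in 7 further ER lists, 36 had IGF2BP2 peaks (38.3%), 23 YTHDF2 peaks (24.5%) and 43 YTHDC1 peaks (45.7%), against 12.8%, 7.28% and 20.0% of all protein-coding genes. Genes with peaks of all readers numbered 16, and those with any 52. The lists, like the members, were chosen with earlier results of these data known. In the unfolded protein response, which raises chaperone transcription when folding fails, 9, 5 and 10 of 14 genes had peaks. In ER-associated degradation, which removes proteins that fail to fold, it was 7, 5 and 6 of 18. In the lectin cycle, the enzymes that trim and restore the sugar read by calreticulin, it was 4, 2 and 6 of 10. Other disulfide isomerases and oxidases had 6, 3 and 6 of 16, BiP co-chaperones 3, 3 and 6 of 12, and translocon and glycosylation genes 7, 5 and 9 of 21. None of the 3 KDEL receptors, which return escaped chaperones to the ER, had a peak.

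The highest folds among these genes were often unlike those of the members in place. *Tmx4*, a membrane-bound thioredoxin relative, had folds of 41.8, 11.9 and 18.0 for IGF2BP2, YTHDF2 and YTHDC1 in the CDS of exon 8, its last. It came nearest to *Calr* for IGF2BP2, while *Erp29* (14.1) did so for YTHDF2 and *Stt3a* (32.9) for YTHDC1. *Os9*, a lectin that delivers misfolded glycoproteins to degradation, had 8.61, 4.91 and 18.7 in exon 11, also in the CDS. *Prkcsh*, the glucosidase subunit with an acidic stretch, had 9.76, 5.89 and 19.4 in the CDS of exon 11. *Sel1l*, the scaffold of the same degradation machinery, had 11.8, 5.47 and 5.89 at different places. These were in the CDS of exon 4, the CDS of exon 10 and the 3′ UTR. *Herpud1*, a partner of that machinery in the ER membrane, had 5.86, 10.8 and 10.7 in the CDS of exon 1. *Ppp1r15a*, the phosphatase subunit that lifts the arrest of translation during ER stress, had IGF2BP2 and YTHDC1 peaks in its CDS with folds of 7.13 and 16.3. *Erp29*, a redox-inactive relative of the isomerases, differed in region, with a CDS summit for IGF2BP2 (6.59) and 3′ UTR summits for YTHDF2 (14.1) and YTHDC1 (17.3). *Stt3a*, a catalytic subunit of the oligosaccharyltransferase, had 16.7, 8.09 and 32.9 with intronic summits. *Tapbp* (23.2), *Sil1* (18.8) and *Mbtps1* (18.9) had YTHDC1 peaks alone, with the strongest in introns.

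Relatives of the members outside the ER, from the Hsp90, Hsp70 and J-domain families, were also bound. Of 11 such genes 10, 8 and 9 had peaks of IGF2BP2, YTHDF2 and YTHDC1. Among the members it was 8, 7 and 8 of 10, and among all protein-coding genes 12.8%, 7.28% and 20.0%. Frequent peaks were thus not particular to the ER members. *Hsp90aa1*, the inducible cytosolic Hsp90, had folds of 62.4, 30.03 and 45.9 with pileups of 145, 61 and 128 in the CDS of exon 5. *Hsp90ab1*, its constitutive partner, had folds of 24.7, 18.0 and 18.3 in exon 6, and *Hspa8*, the constitutive cytosolic Hsp70, had 39.6, 10.7 and 6.67 in exon 8. These families share sequence, and a peak list does not show how reads that fit several of them were placed.

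Over all genes with peaks of every reader, the profile nearest to *Calr* was that of *Hsp90aa1*. Among 1122 such genes the distance over the log2 of the highest fold in the 3 lists was 0.25 for *Hsp90aa1*, 0.40 for *Rnf220*, 0.47 for *Srrm2*, 0.48 for *Myh9* and 0.50 for *Eif3a*. These distances rest on 3 points each and on lists with a common control. They say that the strongest peaks were of like height and nothing of what the genes do.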

How the data were processed

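Each reader (IGF2BP2, YTHDF2, YTHDC1) has 1 immunoprecipitate library and 1 peak list. The input library was not analysed here by itself. The submitters' processing notes name HISAT2, Trim Galore, bcl2fastq 2.17 and the build GRCm38. The peak caller is not given in the sources used here. Per the labels' protocols a stranded kit was used, with 20 PCR cycles and inserts of 250 to 450 bp. The deposited lists hold, per peak, the pileup signal at the summit per the file headers, and a fold (ratio) over the local background made by the authors. They also hold the authors' −log10 of a p-value and q-value, and a deposited score, which is the −log10 q multiplied by 10 and cut to a whole number. All are the authors' values. Ranks were used within a list, since lists of different lengths have no common rank, and folds and pileups of several lists stand side by side as descriptions only. Depth is unknown.

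From these, summits were assigned to GENCODE M21 genes and to 1 main transcript per gene (APPRIS principal first, then the longest CDS). Whether an overlapping or opposite gene gave the reads cannot be seen, as the lists carry no strand. Windows of 50 nt on each side of the summit and of 33 codons were read from the transcript sequences, and places are peaks that overlap by at least 1 bp. Local backgrounds were computed as (pileup + 1) divided by fold, minus 1, which assumes a pseudocount of 1. Intervals are exact at 95% (Clopper-Pearson for shares, Poisson for pileups). PCR copies are not independent molecules and peaks of the same gene are not independent draws, so the intervals cover counting error only. The position code was tested on simulated summits. Python 3.11.15, numpy 2.4.6 and scipy 1.17.1 were used. No test was run, because each reader has 1 library. The named genes are the 10 members, at most 3 genes per pathway list by highest fold in any list, and the 5 genes nearest *Calr*. The members and lists were chosen with earlier results of these data known. Alternatives varied the peak threshold, the list length, the gene assignment, the transcript, the overlap and the window.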

Additional observations from a re-analysis of the deposited data

How the results depend on the processing

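The members with a peak, the 11 shared places, the highest folds, the GGAC shares and the shares at the CDS ends stayed within their stated limits (1.5 times for counts, the 95% interval for shares) under every alternative run for them, as did 78 of 96 alternatives in all. Within those limits members with a peak fell to 6 for IGF2BP2 and for YTHDF2 at a −log10 q, fold or pileup of at least 5. With every list cut to 2834 peaks they fell to 6 for IGF2BP2 and for YTHDC1. The *Pdia3* peaks of IGF2BP2 and YTHDF2 (−log10 q 3.94 and 2.05) were lost at a −log10 q of 5. The shared places numbered 10 there. Member peaks of IGF2BP2 numbered 19 where a −log10 q of 5 or more was asked, and 13 when every list was cut to the 2834 peaks with the highest −log10 q. Those of YTHDC1 were 14 at that equal length. The share of protein-coding genes with an IGF2BP2 peak was 8.05% at a fold of at least 5, 8.13% at a pileup of at least 5 and 6.03% at equal length. For YTHDF2 it was 4.05% and 4.12% at those limits of fold and pileup, and for YTHDC1 7.96% at equal length. With the middle of the peak in place of the summit, the CDS share of YTHDC1 member peaks was 64.0%. In windows of 100 nt on each side the IGF2BP2 purine share was 60.8%, and in windows of 67 codons the share of codons for aspartate and glutamate was 25.8%, 26.9% and 29.3% for IGF2BP2, YTHDF2 and YTHDC1. Wider windows take in more of the surrounding CDS by construction. The causes of the other shifts were not tested.

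The count of members with a summit near the start codon, and its alternatives, were chosen after seeing the data. Within 50 nt it was 1 for IGF2BP2 and 2 for YTHDF2. Asking a −log10 q of 5 or more left YTHDF2 with 2, and at equal list length IGF2BP2, YTHDF2 and YTHDC1 each had 4. No paired analysis was possible because each reader has a single library and no result comes from a test. Leaving out a replicate was not possible for the same reason. Pileups below 10 leave intervals that span several fold, so the order of readers at such places was not detectable at this depth.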
